A study of Mus musculus with 1920 samples.

Results

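Nuclear genes of oxidative phosphorylation were the 97 protein-coding genes, of 48709 gene rows counted, whose symbols begin with Ndufa, Ndufb, Ndufc, Ndufs, Ndufv, Sdha to Sdhd, Uqcr, Cox4 to Cox8 or Atp5. By symbol, 38 belong to complex I, 4 to complex II, 8 to complex III, 18 to complex IV and 17 to complex V, and 12 encode the assembly factors Ndufaf1 to Ndufaf8 and Sdhaf1 to Sdhaf4. Oxidative phosphorylation is the mitochondrial process in which complexes I to IV pass electrons from NADH and succinate to oxygen and pump protons, and complex V, the ATP synthase, uses the proton gradient to make ATP. Most subunits are encoded in the nucleus and imported, while a small core set is encoded in the mitochondrial genome, so every complex except complex II is built from both genomes. Resting microglia, the macrophages of the brain parenchyma, respire through this system, and macrophages in general shift between it and glycolysis with their state.

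The counts come from single microglia of CD1 mice aged 16 weeks, sorted 1 cell per well and sequenced by Smart-seq2, a full-length method without molecular identifiers. The labels number 4 replicates in each of the 10 groups, called mice here. The 6 untreated groups were spinal cord, corpus callosum, facial nucleus, cerebellum, cortex and hippocampus. The other groups were facial nucleus at day 3 and at day 14 after facial nerve axotomy, in which the nerve is cut, and corpus callosum at the demyelination stage and at the remyelination stage of cuprizone treatment, a copper chelator that kills oligodendrocytes. No transgene or deletion is named for any group; the sources used here give neither the dose nor the duration of cuprizone. Axotomised mice carry facial nerve as the tissue label and facial nucleus in the source label. The series text speaks of 3-4 mice per condition and of regions taken from the same untreated mice, so some untreated sums share an animal across regions, and whether 2 replicates of a group share an animal is not known.

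Counts of the 1644 cells that passed the filters were summed per mouse and group into 40 sums of 5298853 to 19964472 counts. All 12 microglia markers were read in every group; their summed level ran from 45651 to 49541 scaled CPM (CPM, the count relative to the library's total, scaled by the trimmed mean of M values) in corpus callosum, from 26036 to 36746 in demyelination and from 27422 to 37020 in remyelination. Each injured group was on another plate than its untreated region, so plate and injury cannot be told apart. P-values measure the spread between these sums.

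All 97 genes had at least 1 read. The filter on low counts left 93 of them in the tests of regions and of axotomy, and 91 in the cuprizone tests. Left out throughout were Cox7b2, Cox8b, Cox8c and Ndufa4l2, and in the cuprizone tests also Cox4i2 and Cox7a1. Annotated exons of 35 of the 97 overlap an exon of another gene, among them Cox4i1 (Emc8), Atp5j (Gabpa), Ndufb6 (Smim27), Ndufs1 (Eef1b2), Ndufa2 (Tmco6) and Cox6a2 (Itgad), and Smart-seq2 does not mark strand, so reads from such partners cannot be told apart. For 5 genes, Uqcrh, Atp5c1, Ndufab1, Atp5k and Atp5l, the annotation holds pseudogene copies under the gene's own symbol, and their counts are uncertain to that extent. Copies under other names were not searched, so the other genes may have them too.

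The summed share of these genes in all gene counts was highest in cuprizone-treated mice. Group means ran from 0.546% to 0.645% over the 6 untreated regions. In facial nucleus the 4 mice had 0.520%, 0.544%, 0.572% and 0.568%, and at day 3 after axotomy 0.742%, 0.925%, 0.865% and 0.754%. The day 3 mice lay above all facial nucleus mice. At day 14 the share was 0.643%, 0.634%, 0.685% and 0.674%, again above every facial nucleus mouse but below every day 3 mouse. In corpus callosum it was 0.731%, 0.530%, 0.667% and 0.565%, in demyelination 1.196%, 1.143%, 1.066% and 1.217%, and in remyelination 0.983%, 0.747%, 1.087% and 0.901%. Both cuprizone groups lay above all 4 corpus callosum mice, in remyelination by a narrow margin for mouse 2. The mean share was 0.623% ± 0.092 (SD, n = 4) in corpus callosum, 1.155% ± 0.067 in demyelination and 0.929% ± 0.144 in remyelination. Counts of Apoe, which took 8.68% of gene counts in demyelination and 13.9% in remyelination, lower such shares; without Apoe and mitochondrial counts the means were 0.634%, 1.30% and 1.12%.

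**Figure D1:**
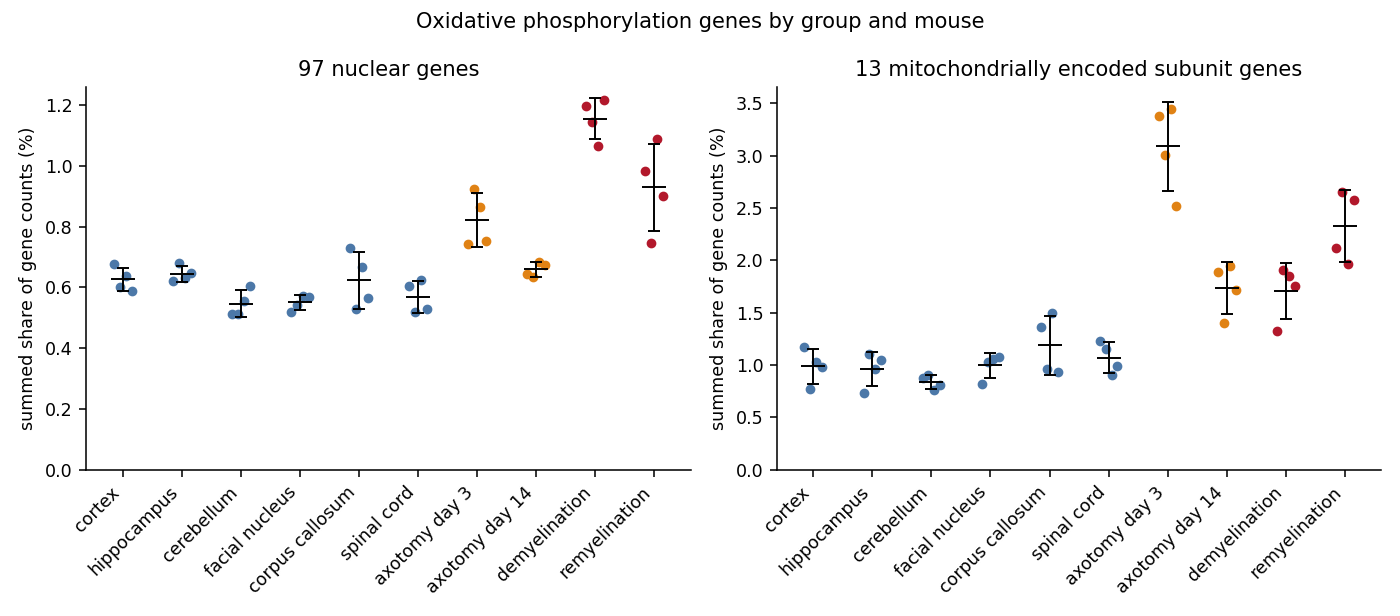
Summed share of gene counts (%, vertical axes) of the 97 nuclear genes (left) and of the 13 mitochondrially encoded subunit genes (right), with 1 point per mouse and horizontal bars with whiskers for the mean ± SD of 4 mice, untreated regions in blue, axotomy in orange and cuprizone in red. The nuclear share is highest in demyelination (mean 1.155%) and the mitochondrial share is highest at day 3 after axotomy (mean 3.09%).

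By complex, the mean share of complexes I, IV and V was higher in both cuprizone groups than in corpus callosum. The shares of complexes II and III are not listed here, and the tests of their genes are given below. Complex IV, which hands electrons to oxygen, went from 0.0786% ± 0.0243 in corpus callosum to 0.193% ± 0.0142 in demyelination and 0.161% ± 0.0252 in remyelination. Complex V went from 0.179% ± 0.0457 to 0.354% ± 0.0344 and 0.263% ± 0.0661, and complex I from 0.216% ± 0.0241 to 0.378% ± 0.0310 and 0.301% ± 0.0371. The assembly factors, which help build complexes I and II without staying in them, had 0.0224% ± 0.0041 in corpus callosum, 0.0272% ± 0.0063 in demyelination and 0.0298% ± 0.0109 in remyelination, so their groups overlapped.

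Among members of each complex, levels per kilobase of exon differed widely. Ranked by the median over the 10 groups of the level in scaled CPM per kilobase, complex IV was led by Cox6a1 (160.1) and Cox4i1 (153), complex I by Ndufb9 (126) and Ndufa2 (119.9), and complex V by Atp5b (121) and Atp5a1 (108), the catalytic and the alpha subunit of the F1 head. Complex III was led by Uqcrfs1 (73.2), the Rieske iron-sulfur protein, and complex II by Sdhb (83.5), its iron-sulfur subunit, just above Sdhd (82.8), a membrane anchor. At the low end stood Uqcrb (19.1) in complex III, Sdhc (22.3) in complex II and Ndufb2 (3.73) in complex I. The assembly factors ranged from Sdhaf4 (26.8) to Sdhaf3 (2.26).

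Most subunits with alternative genes were read mainly from 1 of them, as far as reads can be told from those of pseudogene copies. Per kilobase, the group means of Cox4i1 ran from 101 to 643 scaled CPM, while Cox4i2, its oxygen-regulated alternative, stayed at or under 3.15. Cox6b1 was read far above Cox6b2, which reached at most 3.64 per kilobase, and Cox8a ran from 72.8 to 490.3 while Cox8b and Cox8c, forms known from muscle and testis, reached at most 2.25 and 3.22. Of the genes for the identical c-ring protein of the ATP synthase, Atp5g3 ran from 17.5 to 90.9 per kilobase, Atp5g2 from 0.545 to 2.60 and Atp5g1 from 0.461 to 1.32. Ndufa4l2, a hypoxia-induced relative of Ndufa4, reached at most 0.776 per kilobase, against 31.1 to 139 for Ndufa4.

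**Figure D2:**
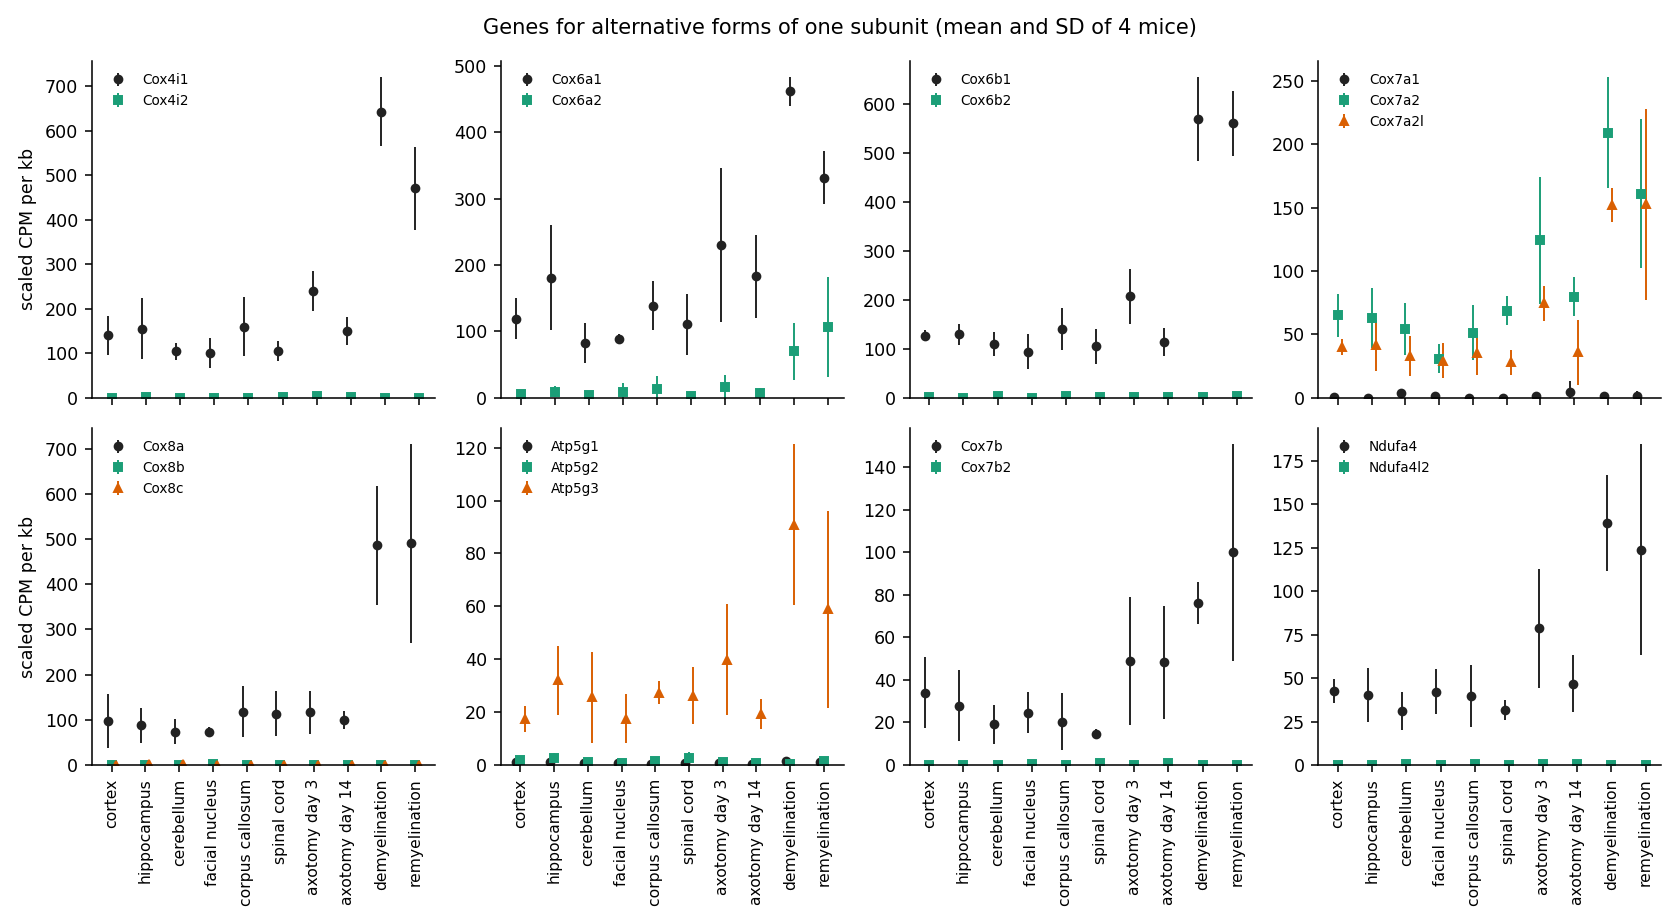
Level in scaled CPM per kilobase of exon (vertical axes) of genes that encode alternative forms of a subunit, as mean and SD of 4 mice in each of the 10 groups. Cox6a2 has a visible level in the cuprizone groups (means 70.0 in demyelination and 107 in remyelination, beside 462 and 332 for Cox6a1). Cox7a2l is visible beside Cox7a2 (group means 27.9 to 153 and 30.8 to 209).

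An exception was Cox7a2l, read at 27.9 to 153 per kilobase over the groups, beside 30.8 to 209 for Cox7a2. Cox6a2, known as the heart and muscle form of subunit VIa, was another. Its level in scaled CPM was 0.347, 1.22, 28.1 and 7.36 in the 4 corpus callosum mice, 88.0, 20.2, 34.7 and 47.4 in demyelination and 136, 33.8, 28.1 and 92.4 in remyelination. Corpus callosum mouse 3 overlapped the demyelination mice and lay beside the lowest remyelination mouse, and the gene did not pass the test (adjusted p = 0.259 and 0.150 by edgeR's quasi-likelihood test). Cox6a2 lies on chromosome 7 at 128205435 to 128206387 (GRCm38) within the span of Itgad, at 128154376 to 128223816, and near Itgax, an integrin gene of activated microglia. Itgax rose from 12.1 ± 9.05 to 537 ± 46.3 scaled CPM in demyelination, while Itgad had 3.73 ± 1.83 and 6.59 ± 4.61; whether reads from these neighbours were counted for Cox6a2 was not tested.

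The untreated regions were compared to ask whether microglia of different regions differ in these genes. No member passed in the test of any difference among the 6 regions, against 0.1% of all 22907 genes, with edgeR at a Benjamini-Hochberg adjusted p under 0.05; 6 members had an unadjusted p under 0.05, as had 10.3% of all genes. DESeq2's likelihood ratio test called Ndufb8 and Ndufb11, and 1.46% of all genes. None passed between cortex and hippocampus (0% of all genes), between cerebellum and facial nucleus (0.00437%) or between spinal cord and corpus callosum (0%), with 3, 3 and 3 members at an unadjusted p under 0.05 (10.3%, 11.3% and 6.57% of all genes) and 0, 1 and 0 by DESeq2 (3.43%, 3.52% and 1.66% of all genes). These members' counts are not above those shares. The DESeq2 call was again Ndufb11, lower in cerebellum, with a log2 fold change of -1.57 in edgeR (adjusted p = 0.422). Median log2 fold changes over the members were -0.03, -0.02 and -0.20, beside -0.07, -0.09 and -0.04 over all genes.

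Axotomy addresses how microglia change around motor neurons whose axons were cut. At day 3 no member passed the test (edgeR), and 0.145% of 19319 genes did, but 23 members had an unadjusted p under 0.05, as had 8.33% of all genes, and all 23 were higher. DESeq2 called 5, all higher, namely Cox6a1, Cox4i1, Cox7a2, Atp5j and Atp5a1, and 1.98% of all genes. The median log2 fold change was 0.84 over the 93 members and 0.04 over all genes, and 80 of the 93 were positive. With spike-in scaling these medians were 0.43 and -0.38, and with equal weight for each cell 0.52 and 0.04. In 22 members all 4 day 3 mice lay above all 4 facial nucleus mice, as in 3.1% of all genes.

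Cox4i1, the largest nuclear subunit of complex IV, had 116, 128, 149 and 231 scaled CPM in the facial nucleus mice and 389, 375, 442 and 276 at day 3. The groups did not overlap; the log2 fold change was 1.26 ± 0.30 (SE) with an adjusted p of 0.154. Cox7a2, a small subunit of complex IV, had 20.1, 20.2, 16.5 and 36.1 in facial nucleus and 125, 85.8, 43.7 and 120.2 at day 3. Its groups did not overlap either, with a log2 fold change of 2.02 ± 0.51 and an adjusted p of 0.223. Atp5a1 had 228, 275, 319.5 and 205 scaled CPM in facial nucleus and 709.8, 639, 499 and 359.7 at day 3, again without overlap, with a log2 fold change of 1.12 ± 0.30 (adjusted p = 0.295). Sdhb had 110.3, 166, 128 and 169.6 in facial nucleus and 65.8, 342, 315 and 348 at day 3. Mouse 1 was below every facial nucleus mouse and the other day 3 mice above, and the log2 fold change of 0.91 did not pass (adjusted p = 0.524).

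By complex, the median log2 fold change at day 3 was 1.26 for complex IV, 0.84 for complex V, 0.77 for complex III, 0.72 for complex I, 0.45 for complex II and 0.33 for the assembly factors. Markers of cell division moved with these values: the summed level of 10 such genes was 11.8 to 225 scaled CPM in facial nucleus and 791 to 1479 at day 3, and 50 of 168 day 3 cells read at least 2 of them. The summed level of 6 neuron markers was 0.203 to 43.9 in facial nucleus and 44.0 to 521 at day 3, and its part in the result was not tested. Without the cells reading 2 or more division markers in any group the median was 0.70 in place of 0.84.

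At day 14 no member passed against facial nucleus (edgeR; 0% of all genes; 2 at an unadjusted p under 0.05, Cox7a2 and Cox6a1, against 5.64% of all genes; 0 by DESeq2). The median log2 fold change was 0.29 over members and 0.11 over all genes. Between day 14 and day 3 none passed (0.0259% of all genes; 7 at an unadjusted p under 0.05, 6 of them lower at day 14, against 6.6% of all genes; 0 by DESeq2), and the median was -0.47 over members and 0.10 over all genes. Atp5b, the catalytic beta subunit, had the lowest p: it had 581, 1214, 801 and 399 scaled CPM at day 3 and 231, 379, 378 and 426 at day 14. Day 3 mouse 4 lay within the day 14 range, and the log2 difference of -1.10 ± 0.30 had an adjusted p of 0.375. Ndufs1, which carries electrons in the peripheral arm of complex I, went the other way, from 67.3, 49.2, 67.4 and 64.2 at day 3 to 68.0, 107, 165 and 127 at day 14, a log2 difference of 0.90 ± 0.39 (adjusted p = 0.666). The day 14 mice were all above the day 3 mice.

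Cuprizone demyelination gave the largest number of calls among these genes. Of the 91 members tested, 28 rose and 0 fell against untreated corpus callosum; 5.16% of 14057 genes were called, 3.08% as higher and 2.08% as lower. The median log2 fold change was 1.48 over members and -0.33 over all genes, most of which are read at lower levels, and 83 of 91 members were positive. In 61 members all demyelination mice lay above all corpus callosum mice, as in 8.88% of all genes. By complex, 11 of 37 tested complex I genes rose, 2 of 4 of complex II, 3 of 8 of complex III, 6 of 13 of complex IV, 6 of 17 of complex V and 0 of 12 assembly factors (edgeR; 1 at an unadjusted p under 0.05). Median log2 fold changes were 1.46, 1.24, 1.77, 1.89, 1.59 and 1.19 in that order.

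The size of this set rests on the scaling. The scaling factors of the cuprizone sums were 0.650 to 0.755, and those of the other groups 0.962 to 1.29. With total counts and no scaling factors 6 members rose, with a median of 0.84 beside -0.97 over all genes, and with the added spike-in RNA as the scale 1 rose, Atp5mpl, with medians of 0.35 and -1.55. The distance between the members' and the overall median was 1.81, 1.81 and 1.90 under the 3 scalings. A scaling factor shifts all genes of a sum alike, so this distance could hardly change between scalings and does not test the rise. It was 1.46 with equal weight for each cell and 3.23 with no filter on low counts. Leaving out demyelination mouse 1, 2, 3 or 4 left 12, 15, 13 or 14 members called, and leaving out corpus callosum mouse 1, 2, 3 or 4 left 15, 10, 13 or 9; the 8 called in every one of these fits were Atp5b, Atp5c1, Atp5j, Atp5mpl, Cox4i1, Cox6a1, Cox6b1 and Ndufa1.

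**Figure D3:**
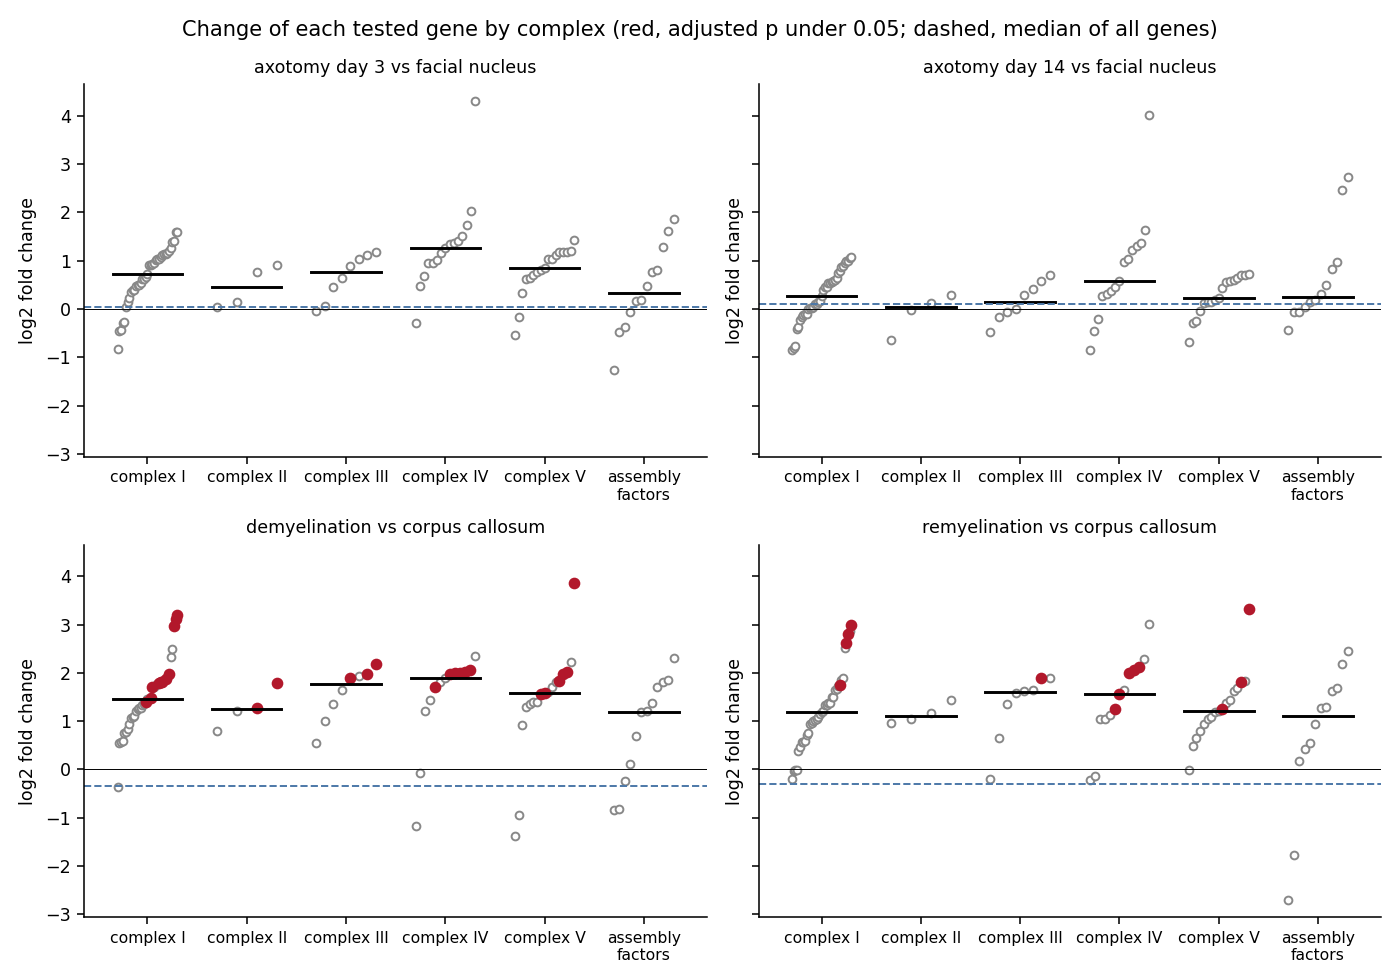
Log2 fold change (vertical axes) of each tested gene by complex in 4 comparisons with the untreated region; filled red points passed an adjusted p of 0.05, open grey points did not, black bars are medians of the complex and the dashed line is the median of all genes. At demyelination 28 points are red and at remyelination 13, all above 0, and no point is red in either axotomy panel.

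In complex V, Atp5mpl, a very small membrane subunit of the ATP synthase on chromosome 12, had the lowest p. It had 13.4, 18.8, 15.9 and 18.4 scaled CPM in corpus callosum and 315, 247, 178 and 252 in demyelination. Its lowest demyelination mouse was far above its highest corpus callosum mouse, and the log2 fold change was 3.86 ± 0.41 (SE; adjusted p = 2.08e-05). Atp5b had 824, 344, 531 and 370.3 in corpus callosum and 2078, 1552, 1300.4 and 1248 in demyelination. Its groups did not overlap, although corpus callosum mouse 1 stood above the other 3; it rose by 1.55 ± 0.32 on the log2 scale (adjusted p = 0.00875). Also called were Atp5c1 (1.97), the gamma subunit of the rotating shaft, Atp5j (2.02) and Atp5f1 (1.59) of the peripheral stalk that holds the head in place, and Atp5e (1.83), the epsilon subunit. The 3 genes of the c-ring did not pass.

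In complex IV, Cox4i1 had 369.7, 171, 298 and 152 scaled CPM in corpus callosum and 1170.4, 984, 911 and 919.8 in demyelination. Every demyelination mouse was above every corpus callosum mouse, and the log2 fold change was 1.98 ± 0.29 (adjusted p = 0.000449). Cox6b1, which sits at the interface of the complex IV dimer, had 139, 77.4, 107 and 74.5 in corpus callosum and 354, 491, 395 and 375 in demyelination. Again the groups were apart, with a log2 fold change of 2.00 ± 0.29 (adjusted p = 0.000523). Cox6a1 (1.71), Cox8a (2.02), Cox7a2 (2.00) and Cox7a2l (2.07), the last known for joining complexes III and IV into supercomplexes, rose as well.

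In complex I, 8 of the 22 tested genes of the membrane arm rose, 2 of 8 of the NADH-oxidising module and 1 of 7 of the quinone module. The membrane arm here holds every complex I gene by symbol outside those modules, Ndufa9 and Ndufa4 included. Ndufa1, a small membrane-arm subunit needed for assembly, had 34.9, 25.6, 15.7 and 13.1 scaled CPM in corpus callosum and 139, 259, 232 and 158 in demyelination. The groups were far apart, and the log2 fold change was 3.11 ± 0.52 (adjusted p = 0.00177). Ndufb6 (2.97) and Ndufc1 (3.20), also of the membrane arm, were the other members whose log2 fold change was near 3. Ndufs1 had 83.6, 91.2, 38.1 and 39.4 in corpus callosum and 68.9, 281, 278 and 79.2 in demyelination, so the groups overlapped, and it did not pass.

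In complex III, 3 of the 5 small subunits rose, namely Uqcrq (1.98), Uqcrh (1.90) and Uqcr10 (2.18), and 0 of the 3 others, the core proteins Uqcrc1 and Uqcrc2 and the Rieske protein Uqcrfs1. Uqcrh, the hinge protein that helps cytochrome c dock, had 121, 57.9, 46.6 and 50.8 scaled CPM in corpus callosum and 274, 167, 327 and 285 in demyelination. The groups did not overlap, and corpus callosum mouse 1 was closest to the demyelination mice (adjusted p = 0.0158). Uqcrc1 had 109.6, 201, 111 and 181 in corpus callosum and 142, 528, 235 and 341 in demyelination, which overlap. The difference between small subunits and the others was not tested.

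In complex II, the link to the citric acid cycle, Sdhb had 173, 149.7, 278 and 139.7 scaled CPM in corpus callosum and 441, 629, 349 and 385 in demyelination. The groups did not overlap, and Sdhb rose by 1.26 ± 0.31 on the log2 scale (adjusted p = 0.0278). Sdhc (1.78), a membrane anchor, rose too. Sdha, the flavoprotein that oxidises succinate, had 132, 172, 389 and 177 in corpus callosum and 143, 612, 393 and 389.6 in demyelination; its groups overlapped and it did not pass.

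**Figure D4:**
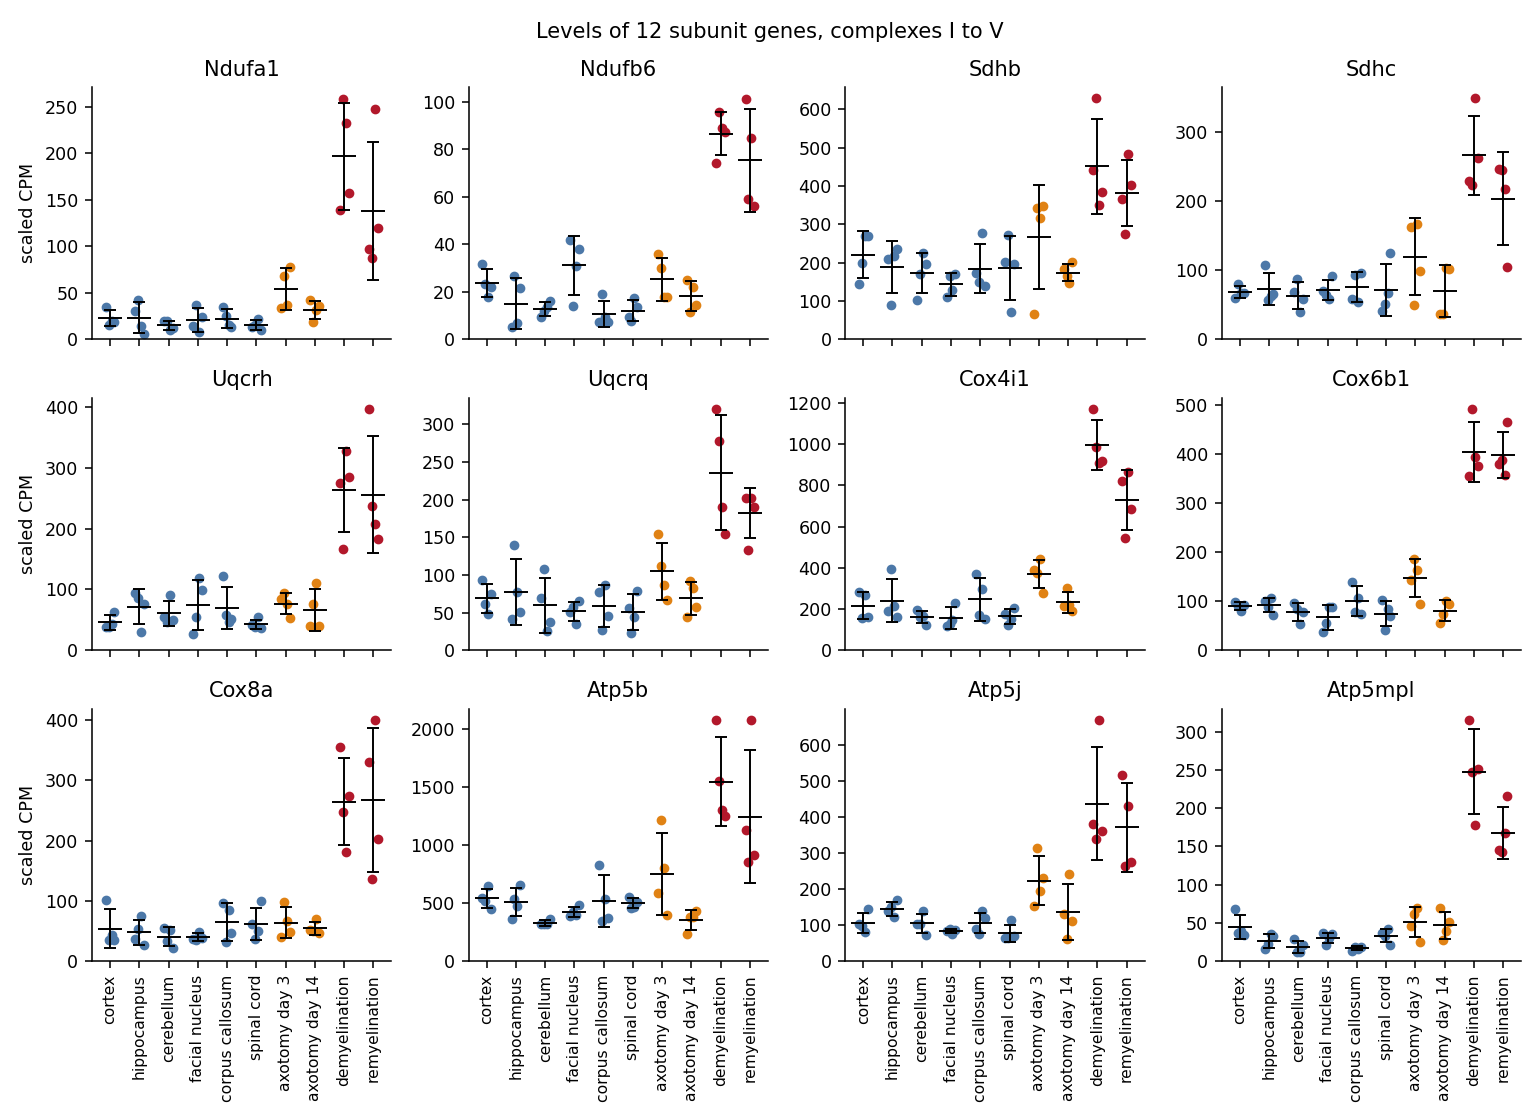
Level in scaled CPM (vertical axes) of 12 subunit genes of complexes I to V in the 10 groups, with 1 point per mouse and bars for the mean ± SD of 4 mice; these 12 are among the 28 genes called at demyelination. In all 12 panels the 4 demyelination mice (red) lie above the 4 corpus callosum mice (blue), while at least 1 day 3 axotomy mouse (orange) lies within the range of the untreated mice in each panel.

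The same counts were also described cell by cell, which is no separate support for the rise. After thinning every kept cell to 20000 reads, a cell held a median of 110.25 reads of the 97 genes in corpus callosum, 209.9 in demyelination and 169.6 in remyelination (means of the 4 mice's medians). The mean number of members detected per cell was 19.9, 30.5 and 19.2, while all genes detected per thinned cell numbered 2032, 1329 and 825. Atp5mpl was read in 15.2% of thinned corpus callosum cells and 59.8% of demyelination cells, Ndufa1 in 18.1% and 56.9%, and Cox4i1 in 63.6% and 87.4%. Fewer genes detected at equal depth moved with the cuprizone groups; its part in the result was not tested. The 20 wells without a cell held 118 reads of the 97 genes.

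Markers of other cells moved with demyelination too. The summed level of 8 monocyte markers was 11.4 to 171 scaled CPM in corpus callosum and 564 to 2119 in demyelination, nearly all of the latter Fn1 (5.46 ± 4.96 and 1216 ± 657). Of the 8 markers 6 were read in demyelination, with Ly6c2 and Chil3 at 0, and Ccr2 had 22.4 ± 19.2 and 7.75 ± 13.96. Ly6c2 was also at 0 in untreated cortex, hippocampus and cerebellum, and the stains used in sorting included Ly6C. Without cells reading at least 2 of the 8 markers, 21 members rose, with a median of 1.55. Division markers summed to 38.0 to 327 in corpus callosum and 249 to 1072 in demyelination, and without cells reading 2 or more of them 24 members rose, with a median of 1.54. P2ry12, a marker of resting microglia, had 6800 ± 647 scaled CPM in corpus callosum and 1988 ± 851 in demyelination.

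Since members moved together, their promoters were searched for the motifs of 3 factors known to regulate nuclear respiratory genes. The letters were GCATGCGC, the larger part of the palindrome bound by NRF1, CCGGAAG for ETS factors such as GABP, and AAGATGGC for YY1, on both strands, from 250 bases before to 50 after the start (RefSeq, GRCm38.p6); the motifs as written do not contain each other. Of the 97 genes 78 had a window. The ETS letters were in 26.9% of these 78, and in 9.93% of all 27025 genes with a window. The NRF1 letters were in 15.4% and 3.05%, and the YY1 letters in 12.8% and 3.19%. At least 1 of the 3 was in 12 of the 22 risen genes with a window (54.5%) and in 24 of the 56 other members (42.9%), against 14.9% of all genes. A match describes the letters only.

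For 1 risen gene per complex, the gene with the lowest p among those with a single window, 100 bases upstream of the start are shown as examples. Each stretch ends before both the RefSeq start and the gene model that was counted. Capitals mark the ETS letters, in Uqcrh on the opposite strand as CTTCCGG; in Cox6b1 they lie closer to the RefSeq start, outside the stretch printed. Sdhb also has matches outside its stretch, of the NRF1 letters at base -54 and of the ETS letters at base 7 from the RefSeq start. The stretches are chrX:37191239-37191338 (minus strand) for Ndufa1, chr4:140961103-140961202 (plus) for Sdhb, chr4:116075072-116075171 (minus) for Uqcrh, chr7:30626152-30626251 (minus) for Cox6b1 and chr10:128083173-128083272 (plus) for Atp5b.
Ndufa1: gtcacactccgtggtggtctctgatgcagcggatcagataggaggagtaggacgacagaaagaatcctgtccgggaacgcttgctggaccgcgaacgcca
Sdhb: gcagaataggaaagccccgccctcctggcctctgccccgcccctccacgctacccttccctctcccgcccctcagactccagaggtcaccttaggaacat
Uqcrh: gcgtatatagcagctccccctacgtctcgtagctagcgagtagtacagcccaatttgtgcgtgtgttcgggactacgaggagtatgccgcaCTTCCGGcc
Cox6b1: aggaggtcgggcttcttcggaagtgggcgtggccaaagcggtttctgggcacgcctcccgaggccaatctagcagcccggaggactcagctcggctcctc
Atp5b: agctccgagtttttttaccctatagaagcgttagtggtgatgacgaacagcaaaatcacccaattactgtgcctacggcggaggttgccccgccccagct

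At remyelination 13 members rose against corpus callosum and 0 fell, where 3.12% of all genes were called, 2.51% as higher and 0.605% as lower. By complex, 4 of 37 genes of complex I rose, 0 of 4 of complex II (edgeR; 4 at an unadjusted p under 0.05), 1 of 8 of complex III, 5 of 13 of complex IV, 3 of 17 of complex V and 0 of 12 assembly factors (0 at an unadjusted p under 0.05). All 13 were among the 28 called at demyelination; both comparisons use the same corpus callosum mice. The median log2 fold change was 1.26 over members and -0.31 over all genes. With spike-in scaling the direction turned: the median was -0.77 over members and -2.24 over all genes, no member rose, and Uqcrc2, Ndufb10, Atp5a1, Ndufs8 and Ndufb8 fell. The median over all genes was lower still, so these calls do not mark a fall particular to the members. The share of all genes called under that scaling is not given here. With total counts 2 members rose, with medians of 0.53 and -0.98.

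Markers of other cells and signs of RNA quality moved with remyelination. The summed level of 6 oligodendrocyte markers was 96.3 to 395 scaled CPM in corpus callosum, 163 to 664 in demyelination and 107 to 1727 in remyelination. Of these 6 markers 5 were read in remyelination, and Mog was at 0. The summed level of 6 endothelial markers was 17.5 to 67.8, 85.1 to 264 and 46.3 to 392 in the same order. In remyelination 4 of these were read, and Cdh5 and Ly6a were at 0. That of 6 markers of border macrophages was 4.51 to 13.5, 4.98 to 72.5 and 0 to 161, with 4 of the 6 read in each cuprizone group. Lyve1 was at 0 in both, as it was in untreated hippocampus and facial nucleus. The 8 monocyte markers summed to 0.845 to 322 in remyelination. Of the wells labelled as cells 91.1% were kept in corpus callosum, 84.7% in demyelination and 67.9% in remyelination, with median spike-in shares of 8.50%, 10.8% and 18.4% and medians of 2926, 2137 and 1517 genes per cell. The part of these in the result was not tested.

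Atp5mpl had 146, 142, 168 and 217 scaled CPM at remyelination, all above the corpus callosum range of 13.4 to 18.8, a log2 fold change of 3.33 ± 0.40 (adjusted p = 8.73e-05). Cox6b1 had 380.2, 387, 357 and 465, a log2 fold change of 2.00 ± 0.29 (adjusted p = 0.000609). Cox4i1 had 822, 545, 865 and 683, a log2 fold change of 1.56 ± 0.28 (adjusted p = 0.00386). In all 3 genes no remyelination mouse overlapped corpus callosum. The others called were Ndufa1 (2.61), Ndufa6 (1.75), Ndufb6 (2.80), Ndufc1 (2.98), Uqcrh (1.90), Cox6a1 (1.26), Cox7a2l (2.12), Cox8a (2.06), Atp5b (1.26) and Atp5j (1.82). Just outside the threshold were Atp5c1 (adjusted p = 0.0501), Uqcrq (0.0507) and Cox7b (0.0524), and at demyelination Ndufa13 (0.0502) and Atp5g3 (0.0562). Without remyelination mouse 3 the count was 8, and without corpus callosum mouse 2, 3 or 4 it was 6, 8 or 5.

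Between the cuprizone stages no member passed (edgeR; 0.0427% of all genes; 3 at an unadjusted p under 0.05, all lower at remyelination, against 14.1% of all genes; 0 by DESeq2). The 3 were Ndufb5 (-1.40), Ndufb8 (-0.82) and Atp5c1 (-0.77). The median log2 difference was -0.21 over members and 0.03 over all genes.

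The demyelination effect and the day 3 axotomy effect were compared in 1 fit of the 6 groups. Only Atp5mpl passed, where 0.281% of 22810 genes did. Its facial nucleus mice had 36.0, 20.5, 29.5 and 34.7 scaled CPM and its day 3 mice 45.5, 62.2, 69.3 and 25.2, which overlap, while demyelination and corpus callosum were far apart. The demyelination effect was larger by 3.22 ± 0.66 on the log2 scale (adjusted p = 0.0158). The call was lost with total counts, with spike-in scaling, without the filter on low counts, without dividing cells, and without demyelination mouse 1, corpus callosum mouse 1 or day 3 mouse 4. Next came Ndufb6 (3.37, adjusted p = 0.0794), a membrane-arm subunit. The median difference was 0.86 over members and -1.22 over all genes; it was 0.36 and -1.68 with total counts and turned to -0.03, beside -2.08, with spike-in scaling. For 10 members the unadjusted p was under 0.05, against 21.7% of all genes, 9 of them with the larger effect at demyelination.

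The 13 subunits encoded in mitochondrial DNA are made inside the organelle and join the nuclear subunits in 4 of the 5 complexes. In 6 of them, mt-Nd3, mt-Nd4l, mt-Co2, mt-Co3, mt-Atp6 and mt-Atp8, the mean was at or under 0.26 scaled CPM in every group, although every cell uses these genes, so all values below rest on the other 7. The summed share was 0.997% ± 0.120 in facial nucleus, 3.09% ± 0.425 at day 3 and 1.74% ± 0.245 at day 14. In corpus callosum it was 1.19% ± 0.281, in demyelination 1.71% ± 0.264 and in remyelination 2.33% ± 0.342. The ratio of the mitochondrial to the nuclear share per mouse was 1.58, 1.90, 1.85 and 1.90 in facial nucleus and 4.56, 3.25, 3.99 and 3.35 at day 3, with no overlap. In corpus callosum it was 1.86, 1.82, 2.24 and 1.66, in demyelination 1.11, 1.67, 1.74 and 1.44, and in remyelination 2.15, 3.56, 1.81 and 2.87. The demyelination and remyelination mice did not overlap in this ratio, and both overlapped corpus callosum. Of the 7 mitochondrial genes tested by edgeR, 6 rose at day 3, where 0.145% of all genes were called. Their median log2 fold change over the 7 was 1.97, or 1.57 with spike-in scaling. At day 14 edgeR called 0 (0% of all genes) and DESeq2 1 (1.01% of all genes). The unadjusted p by edgeR was under 0.05 for all 7, against 5.64% of all genes. At demyelination 5 rose, as did 3.08% of all genes. The median was 1.08, which was 0.45 with total-count scaling and turned to -0.06 with spike-in scaling, with 0 called in both. At remyelination 7 rose, as did 2.51% of all genes. The median was 1.61, which was 0.95 with total-count scaling, with 5 called, and turned to -0.31 with spike-in scaling, with 0 called.

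Genes that work beside the complexes were tested in the same fits. At demyelination, where 3.08% of all genes rose, 3 of 17 listed membrane and matrix genes did. These were the adenine nucleotide exchangers Slc25a4 (log2 fold change 1.89) and Slc25a5 (1.37) and the phosphate carrier Slc25a3 (1.42), which bring ADP and phosphate to the ATP synthase. With spike-in scaling the 3 values were 0.73, 0.19 and 0.20, and neither that nor total-count scaling called any of them. The call of Slc25a5 (adjusted p = 0.047) was also lost in all 8 fits without 1 mouse (adjusted p 0.0505 to 0.114), with upper-quartile scaling, equal weight for each cell, no filter on low counts and without cells reading monocyte markers. At remyelination, where 2.51% of all genes rose, 1 of the 17 did, Slc25a3 (1.09). Its value turned to -0.94 with spike-in scaling and was not called there or with total-count scaling. It was called in 3 of the 8 fits without 1 mouse (adjusted p 0.0195 to 0.0953).

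At demyelination and remyelination edgeR called 5.16% and 3.12% of all genes. In both stages it called 0 of 17 electron carrier and coenzyme Q genes and 0 of 34 further assembly factors. It also called 0 of 17 genes of pyruvate dehydrogenase and the citric acid cycle. The unadjusted p was under 0.05 for 2, 4 and 5 of these at demyelination, against 20.3% of all genes, and for 3, 3 and 2 at remyelination, against 18.8%. DESeq2 called 1, 2 and 0 at demyelination, against 14.3% of all genes, and 2, 2 and 1 at remyelination, against 11.9%.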

How the data were processed

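The authors deposited 1 table of unnormalised counts, in whole reads for each gene in each well. Per the submitters' processing notes, reads were aligned with STAR 2.5.2b to mouse build GRCm38 and counted with featureCounts 1.5.1; which annotation release and strand setting were used is not given in the sources. Per the labels' protocols, sorting used CD206, Ly6G, Ly6C, CD45 and CD11b stains. Gene symbols came from GENCODE M21, which holds 48349 of the 48709 gene identifiers.

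Cells with at least 20000 gene counts, 500 genes, under 25% mitochondrial counts and under 50% spike-in counts were kept (1644 of 1900, and 0 of 20 wells labelled negative), and counts were summed per mouse and group. Doublets were not called, because each well received 1 sorted cell. Within groups no pair of sums was alike within counting noise (60 pairs, lowest chi-square per degree of freedom 75.4). Sums were tested with edgeR 4.0.16 in R 4.3.3 (TMM scaling, minimum count 10, total 15, robust quasi-likelihood F test), with Benjamini-Hochberg adjusted p under 0.05 over all genes. The regions, the axotomy groups with facial nucleus, and the cuprizone groups with corpus callosum were fitted separately. Levels are CPM scaled over all 40 sums. Log2 fold changes are fitted values with their SE.

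Members and gene lists were chosen with earlier results of these data known. The text names, per comparison and complex, up to 5 genes with the lowest adjusted p among those called, or the gene with the lowest p where none was, the 2 highest and 2 lowest by level, and a panel of core subunits and isoform pairs; other called genes and a few beside the threshold were named after their values were seen. Alternatives included DESeq2 1.42.0, other scalings and filters, a replicate block and leaving out each mouse. Tested on simulated data for demyelination against corpus callosum (12876 genes), the fit recovered 0% of genes changed by 1, 4% changed by 2 and 30% changed by 3 on the log2 scale. The changed genes were drawn from all genes within the middle range of the members' levels, each with its own spread. The percentages are therefore not those of the members.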

Additional observations from a re-analysis of the deposited data

Results flagged for a closer look

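In 200 groups of 4 mice (the summed share of each complex and 13 genes, in each of 10 groups), 18 held a mouse whose gap to the nearest of the others exceeded the critical value of Dixon's test, and chance alone gives about 1 in 20. Complex I had a share of 0.245% in cortex mouse 1 (nearest other 0.210%) and 0.262% in hippocampus mouse 2. Complex II had 0.0864% in corpus callosum mouse 3 and 0.102% in remyelination mouse 3. Complex III had 0.0782% in hippocampus mouse 2, and complex IV 0.0675% in facial nucleus mouse 4. Complex IV was low, at 0.124%, in remyelination mouse 2, where the nearest other was 0.170%.

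Among single genes, levels are in scaled CPM. Uqcrh was high in cortex mouse 4 (63.0), cerebellum mouse 3 (91.4) and corpus callosum mouse 1 (121), the last in the untreated arm of the cuprizone comparison. Cox7a2 was high in cortex mouse 1 (67.9) and low in day 14 mouse 2 (42.6). Cox6a2 was at 0 in cerebellum mouse 2 and at 19.97 in facial nucleus mouse 3. Atp5b was high in cerebellum mouse 4 (364.5), Ndufs1 in spinal cord mouse 3 (220.3) and Sdha in day 14 mouse 4 (224). Sdhb was low in day 3 mouse 1 (65.8, nearest other 315).

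The effect of demyelination on Atp5mpl differed from that of axotomy at day 3 by 3.22 on the log2 scale in the test of the difference itself. The 20 wells without a cell held 118 reads of the 97 genes, 0.664% of their 17779 gene counts, beside 0.750% in kept cells.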

How the results depend on the processing

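Counts of called members varied with the processing. At demyelination 28 became 43 with DESeq2, 11 with no filter on low counts, 18 with equal weight for each cell, 6 with total counts and 1 with spike-in scaling, and 9 to 15 with 1 mouse left out. At remyelination 13 became 37, 8, 13, 2 and 5 (all 5 lower, where the median over all genes was -2.24) under these settings and 5 to 14 with 1 mouse left out. With the replicate number as a block the counts were 18 and 9. Same-numbered sums deviated together only weakly. Their median correlation was 0.018 over regions, 0.001 in axotomy and 0.006 in cuprizone (highest 0.045). Other pairs had medians of -0.006, -0.002 and -0.003. The numbers were not taken as pairs, so an animal shared across regions was not modelled in the main fits. For the difference between demyelination and day 3 effects, 1 became 5 with DESeq2 and 0 with no filter, total counts, spike-in scaling or without dividing cells, and 0 to 1 with 1 mouse left out. DESeq2 called 14.3% of all genes at demyelination, 11.9% at remyelination and 11.3% for the difference of effects. It called 5 members at day 3, 2 among regions and 1 between cerebellum and facial nucleus, where edgeR called 0. Fold changes reversed at remyelination with spike-in scaling: Ndufa6 -0.23, Uqcrh -0.11, Cox4i1 -0.33, Cox6a1 -0.63, Atp5j -0.19 and Atp5b -0.58. Spike-in scaling moved the members' median to 0.35 at demyelination, -0.77 at remyelination, -0.97 between the stages, -0.03 for the difference of effects, 0.43 at day 3, 0.16 at day 14, -0.18 between day 14 and day 3 and 0.63 between cortex and hippocampus. The spike-in and total-count scalings and the 2 fits without marked cells were chosen after seeing the data. Where a count moved, the cause was not tested. Members read at low levels, such as Atp5l (625 reads) and Cox7c (2346 reads), rest on few reads, and why they are low was not tested.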

Other observations

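Among 13 tested genes known to regulate mitochondrial biogenesis, Hif1a was the one called. Of all genes, 5.16% were called at demyelination and 3.12% at remyelination. Hif1a encodes the oxygen-regulated subunit of hypoxia-inducible factor. Its log2 fold change was 2.99 ± 0.43 (SE) at demyelination (adjusted p = 0.000407) and 2.97 ± 0.43 at remyelination (adjusted p = 0.000496, edgeR). Hif1a had 57.6 ± 31.1 scaled CPM in corpus callosum, 464 ± 88.9 in demyelination and 443 ± 199.99 in remyelination (SD, n = 4). With spike-in scaling its log2 fold change was 1.87 at demyelination (adjusted p = 0.0201) and 0.93 at remyelination (adjusted p = 0.112), so that the remyelination call was lost. Genes of the factors whose motifs were searched, Nrf1, Gabpa and Yy1, did not pass in either stage, with log2 fold changes of -0.99, 0.13 and 1.02 at demyelination and -1.20, 0.03 and 2.58 at remyelination. Yy1 at remyelination had an unadjusted p of 0.0489 and an adjusted p of 0.262.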
